A study of Mus musculus with 3 samples.

Results

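The expression of 10 genes of neutrophil granules and of neutrophil maturation was described in mouse glioblastomas, namely Elane, Mpo, Ngp, Camp, Ltf, Lcn2, S100a8, S100a9, Retnlg and Il1f9. They were taken by name, 10 of the 50262 genes in the deposited table, because earlier results of these data had shown them to vary with tumor stage. The values that chose them, their levels by stage and their order across neutrophils, are therefore given as descriptions with no test. The cells that carried them were picked by a count of at least 30 unique molecular identifiers (UMIs, each 1 captured mRNA molecule) of S100a8 and S100a9 together, and 357 of the 17894 cells past the quality limits met it.

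The tumors grew in adult mice of mixed background after stereotactic injection of a Cre lentivirus, which switched on a conditional human EGFR transgene and a luciferase reporter. All groups shared this wild type EGFR transgene and Cdkn2a-/-, and no group without a tumor entered the comparisons. Brains with an early, a medium or a late (labelled large) tumor were dissociated, and viable cells were sorted into CD45+ leukocytes and CD45- cells (tumor, glia and vessels) and run on the droplet-based inDrop platform. Each stage had 1 tumor sample, split into 4 libraries for each sort that were spread over 3 sequencing runs. The paper states that each of its early samples was a pool from more than 1 mouse or tumor. The libraries are technical repeats, so no test between stages was possible.

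Neutrophils store antimicrobial proteins in granules that are filled in sequence as the cell matures in the bone marrow. Azurophil (primary) granules are filled in promyelocytes, specific (secondary) granules in myelocytes and metamyelocytes, and gelatinase granules in band and segmented cells, so the granule mRNAs present in a cell mark how far it has matured. Mature neutrophils in blood have largely switched off the mRNAs of azurophil and specific granule proteins. Among the genes described, Elane encodes neutrophil elastase and Mpo myeloperoxidase, both of azurophil granules. Ngp (neutrophilic granule protein), Camp (the cathelicidin CRAMP), Ltf (lactoferrin, which binds iron) and Lcn2 (lipocalin 2, which binds bacterial siderophores) belong to specific granules. S100a8 and S100a9 form calprotectin, an abundant cytosolic protein pair that binds calcium and zinc. Retnlg encodes a resistin-like secreted protein of myeloid cells, and Il1f9 (interleukin 36 gamma) a cytokine of the interleukin 1 family.

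The loci lie apart, except for a few neighbours. In the GENCODE M21 annotation of GRCm38, S100a8 (ENSMUSG00000056054, chr3:90668978-90670035, plus strand) and S100a9 (ENSMUSG00000056071, chr3:90692632-90695721, minus strand) are in 1 cluster on chromosome 3. Ngp (ENSMUSG00000032484, chr9:110419747-110423012), Camp (ENSMUSG00000038357, chr9:109847379-109849617) and Ltf (ENSMUSG00000032496, chr9:111019271-111042767) are all on chromosome 9. Lcn2 (ENSMUSG00000026822, chr2:32384633-32388252) and Il1f9 (ENSMUSG00000044103, chr2:24186476-24193568) are on chromosome 2, Elane (ENSMUSG00000020125, chr10:79886247-79888215) on chromosome 10, Mpo (ENSMUSG00000009350, chr11:87793581-87804413) on chromosome 11 and Retnlg (ENSMUSG00000022651, chr16:48872621-48874496) on chromosome 16.

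Since the genes appeared in sets along the order of cells described below, the 250 bases before the RefSeq transcription start were read for all 10 genes (GRCm38.p6), and 5 of these windows, covering the steps of that order, are shown with 2 kinds of short motif in capitals. One is TTGCNNAA, a pattern bound by the C/EBP family of transcription factors that direct granulocyte maturation, and the other is GAGGAA, the core of sites of the ETS factor PU.1. Both were searched on both strands, so they can also appear as TTNNGCAA or TTCCTC. The windows are chr10:79886062-79886311 (plus strand) for Elane, chr9:110419558-110419807 (plus) for Ngp, chr9:111019042-111019291 (plus) for Ltf, chr3:90695722-90695971 (minus) for S100a9 and chr16:48872358-48872607 (plus) for Retnlg, each read 5′ to 3′ on the strand of the gene.
Elane: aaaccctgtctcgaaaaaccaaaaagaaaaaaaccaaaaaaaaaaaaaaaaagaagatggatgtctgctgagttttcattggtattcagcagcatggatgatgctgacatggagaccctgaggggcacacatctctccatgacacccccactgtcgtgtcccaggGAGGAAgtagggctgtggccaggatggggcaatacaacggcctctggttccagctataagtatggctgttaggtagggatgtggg
Ngp: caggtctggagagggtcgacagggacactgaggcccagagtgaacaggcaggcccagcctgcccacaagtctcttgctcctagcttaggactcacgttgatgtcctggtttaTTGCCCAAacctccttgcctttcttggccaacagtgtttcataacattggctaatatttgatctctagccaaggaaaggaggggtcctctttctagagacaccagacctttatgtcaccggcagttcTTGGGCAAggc
Ltf: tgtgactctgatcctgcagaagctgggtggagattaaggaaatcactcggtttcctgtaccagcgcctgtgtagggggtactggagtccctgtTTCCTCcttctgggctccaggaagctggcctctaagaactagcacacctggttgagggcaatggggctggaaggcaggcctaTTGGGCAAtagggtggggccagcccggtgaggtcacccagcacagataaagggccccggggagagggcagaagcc
S100a9: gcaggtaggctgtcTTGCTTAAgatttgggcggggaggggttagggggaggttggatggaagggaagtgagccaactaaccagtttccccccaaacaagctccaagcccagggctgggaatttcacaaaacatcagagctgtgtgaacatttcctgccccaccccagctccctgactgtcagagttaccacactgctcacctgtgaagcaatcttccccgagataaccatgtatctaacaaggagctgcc
Retnlg: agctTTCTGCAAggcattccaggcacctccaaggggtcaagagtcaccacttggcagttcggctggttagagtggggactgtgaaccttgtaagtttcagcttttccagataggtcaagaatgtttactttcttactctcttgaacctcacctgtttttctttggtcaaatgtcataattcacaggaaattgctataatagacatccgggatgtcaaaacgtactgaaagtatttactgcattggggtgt
The C/EBP-type letters were in the windows of 5 of the 10 genes, Ngp (with 2 matches), Ltf, Lcn2, S100a9 and Retnlg, and in 9.56% of all 32851 promoter windows of the table. The PU.1-type letters were in 6 of the 10, Elane, Mpo, Ltf, Lcn2, S100a8 and Il1f9, against 23.3% of all windows. The window of Camp held neither. A match is a description of the letters and not of binding.

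Past the limits there were 5110 early, 3988 medium and 2120 late CD45+ cells, with 10861862, 9743544 and 5406440 UMIs. Depth per cell was alike, with median UMIs of 1967, 1989.5 and 2115. The single libraries ranged from 62320 to 4235020 UMIs, and the 2 smallest late CD45+ libraries, both of run 1, held 17 and 91 cells. The libraries of a stage were not independent of each other. Cell barcodes recurred between the 4 medium CD45+ libraries, with 577 shared by pairs of libraries where 42.8 would be shared by chance. In the other CD45+ samples pairs shared 106 against 69.4 (early) and 51 against 8.88 (late), and in the CD45- samples 301 against 39.8 (early), 45 against 16.7 (medium) and 467 against 17.4 (late). Pairs of libraries of a different stage or sort shared 1358 barcodes against 1226 by chance. Among the shared medium barcodes, 118 pairs had at least 30 UMIs of S100a8 and S100a9 in both libraries and 12 in only 1. In the medium sample 283 cells above the cut were 203 distinct barcodes, while the 47 early cells were 47 barcodes and the 27 late cells 26. The level of each member in the medium sample, the share of cells above the cut and the share in the specific granule range are also given with 1 column per barcode, while the other values count a repeated barcode each time.

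CD45+ cells carried nearly all UMIs of 9 of the 10 genes. In the CD45- cells of all 3 tumors, with 25690291 UMIs, S100a9, Camp, Retnlg and Elane had 0 UMIs, S100a8 and Ngp had 1 each, Ltf 3, Lcn2 9 and Mpo 14. Levels are given as CPM, the UMIs of a gene scaled to 1000000 UMIs of all genes in the cells concerned. S100a9 was at 876 CPM (early), 10080 (medium) and 1539 (late) in the CD45+ samples and at 0 in each CD45- sample. Set against the limit of 3 counts over all CD45- cells, it was at least 38203-fold higher in CD45+ cells. By the same limit Camp was at least 7771-fold, Retnlg at least 2181-fold and Elane at least 1317-fold higher. Lcn2 stood at 387 CPM in CD45+ against 0.350 in CD45- cells, a ratio of 1104 (95% interval 581 to 2414, counting error only).

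The 3 tumors gave a paired test of the sorts, edgeR's quasi-likelihood test on summed counts. Of 18418 genes tested, 20.4% were higher and 25.7% lower in CD45+ cells at an adjusted p under 0.05. Among the 8 members that passed the filter on low counts, 8 were called higher. Elane and Mpo, which were nearly limited to the medium sample, did not pass it and were not tested. All of the 8 but Il1f9 had at most 9 UMIs in CD45- cells, so they passed the filter through the CD45+ cells alone and had to differ. Il1f9 was the exception in level, at 4.60, 6.36 and 2.96 CPM in CD45+ cells of the 3 stages in order, and 1.94, 1.65 and 3.24 in CD45- ones. The ranges of Il1f9 overlapped between the sorts, and its log2 fold change of 1.37 (SE 0.47) had an adjusted p of 0.0495 (edgeR, n = 3 pairs). This call was lost without the early or the medium sample, with all deposited cells, and without TMM scaling.

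Granule genes made up a far larger share of the RNA of the medium CD45+ cells. Together the 10 genes were at 1884 CPM (early), 25548 (medium) and 3329 (late), a medium to early ratio of 13.6 (95% interval 13.4 to 13.8, counting error only). With 1 column per barcode the medium value was 22871. The medium libraries lay between 20520 and 30385, the early ones between 1020 and 9946, and the late ones between 7.57 and 24390. The highest late library was the one of 17 cells, in which 1 cell held all 769 of its S100a9 UMIs. Without it, the late value was 3084. The highest early library was that of run 1, with 143 cells, and without it the early value was 1582. Fewer neutrophils and less granule mRNA in each cannot be told apart in such sums, so the number of cells is given next.

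**Figure D1:**
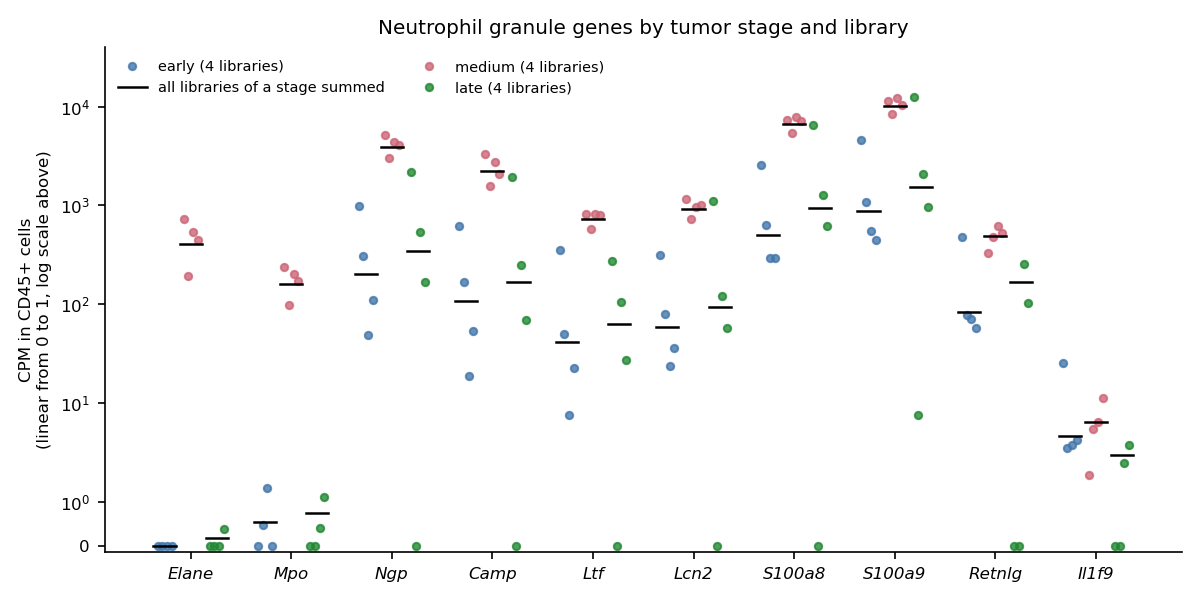
CPM of each gene in the CD45+ cells of every library (points, 4 per stage) and of all libraries of a stage summed (black bars), on an axis that is linear from 0 to 1 and logarithmic above. Elane and Mpo stand at 410 and 160 in the medium sample and at or under 0.740 in the others, while Il1f9 stands at 4.60 (early), 6.36 (medium) and 2.96 (late).

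Cells with at least 30 UMIs of S100a8 and S100a9 were 0.920% of the early (47 cells, exact 95% interval 0.677 to 1.22%), 7.10% of the medium (283 cells, 6.32 to 7.94%) and 1.27% of the late CD45+ cells (27 cells, 0.841 to 1.85%). No CD45- cell reached the cut. In the medium sample the share was 8.59%, 6.17% and 8.13% in runs 1, 2 and 3, and 5.70% with 1 column per barcode, in each case above the values of the early and late samples in runs 2 and 3, which lay between 0.711 and 1.51%. Run 1 held 143 early cells, of which 6 were above the cut (4.20%). A further 17 medium cells above the cut had been removed for having under 500 genes. The cut fell in a sparse part of the distribution. Counts of 20 to 29 were found in 13 cells, 30 to 39 in 5 and at least 100 in 306. The 13 cells just below the cut had a median of 9 S100a8 and 18 S100a9 UMIs, and the 5 just above had 11 and 24.

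These cells had the markers of neutrophils. Clustering without the 10 genes placed 302 of the 357 in a neutrophil-like cluster led by Mmp8 and Ly6g, which carried 10 of the 10 neutrophil markers used for naming. A further 32 fell in a cluster led by Prtn3 and Ctsg, genes of azurophil granules, which also held mast cell genes such as Mcpt4 and Cpa3 and was left unnamed. The others were spread over other clusters, with at most 5 in any named class. Of the UMIs of S100a8, S100a9, Ngp, Camp, Ltf, Lcn2 and Retnlg in CD45+ cells, 99.2 to 99.7% were in the 357 cells.

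The azurophil granule genes were found in the medium tumor and next to nowhere else. Elane had 0 UMIs in early, 3998 in medium and 1 in late CD45+ cells, and Mpo 6, 1560 and 4. Elane was at least 1486-fold higher in the medium than in the early sample, taking 3 counts as the limit, and the medium to early ratio of Mpo was 290 (133 to 791). It rests on 6 early UMIs, and without the early library of 1480 cells early Mpo was at 0.251 in place of 0.552 CPM. Both genes were present in each of the 4 medium libraries, Elane at 194 to 722 and Mpo at 98.4 to 239 CPM. Cells with at least 3 UMIs of Elane and Mpo together, a limit chosen after their values were seen, numbered 69, all medium and from 36 distinct barcodes. They held 3981 of the 3999 Elane UMIs and 1548 of the 1570 Mpo UMIs. By S100a8 and S100a9, 35 of them lay above the cut of 30 and 34 below it.

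Among the members other than Elane and Mpo, the specific granule genes had the highest medium to early ratios. Ngp was at 203 CPM (early), 3935 (medium) and 349 (late), a medium to early ratio of 19.3 (95% interval 18.5 to 20.2). Camp stood at 108, 2208 and 169 (ratio 20.4, 19.2 to 21.6), Ltf at 41.6, 721 and 63.3 (ratio 17.3, 15.7 to 19.1) and Lcn2 at 59.4, 914 and 94.3 (ratio 15.4, 14.2 to 16.7). In each case the 4 medium libraries lay above every early library, whereas the late library of 17 cells reached 1958 for Camp and 1107 for Lcn2 and overlapped with the medium ones. Single libraries moved the early and late values. Without the run 2 early library Ngp was at 135 and Camp at 71.4 in the early sample. Without the run 2 late library Ngp was at 195, Camp at 103 and Ltf at 29.7 in the late sample, and without the run 3 late library at 525, 265 and 98.5. Leaving out 1 medium library at a time gave 3683 to 4520 for Ngp, 1995 to 2623 for Camp and 695 to 814 for Ltf, above all of these. With 1 column per barcode the medium values were 3418 for Ngp, 1901 for Camp, 646 for Ltf and 828 for Lcn2, and for the azurophil genes 324 (Elane) and 132 (Mpo).

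The ratios were lower for the calprotectin genes, and lowest for Retnlg and Il1f9. S100a8 was at 506 (early), 6621 (medium) and 945 CPM (late; medium to early ratio 13.1, 12.7 to 13.5), and S100a9, given above, had a ratio of 11.5 (11.3 to 11.8). Retnlg was at 84.3, 494 and 166, a ratio of 5.86 (5.46 to 6.29), and here the highest early library (480) lay within the medium range of 329 to 613. With 1 column per barcode the medium values were 5972 for S100a8, 9123 for S100a9, 519 for Retnlg and 6.72 for Il1f9. Il1f9 had 50, 62 and 16 UMIs in all, and its ratio of 1.38 (0.937 to 2.05) did not differ from 1 beyond counting error, while its medium to late ratio was 2.15 (1.23 to 3.99). At 2-fold, 9 of the 10 genes were higher in the medium than in the early sample, where 12.6% of 19937 genes with at least 10 UMIs were. None of the 9 with enough UMIs was 2-fold higher in the late than in the early sample, where 9.27% of genes were, and 0 were 2-fold lower, where 5.39% were, although S100a8 (1.87, 1.80 to 1.94) and Retnlg (1.97, 1.79 to 2.16) came near it. That count rested on single libraries. Without the run 1 early library Ngp, Ltf, S100a8, S100a9 and Retnlg were over 2-fold higher in the late sample, and without the run 2 early library Ngp, Camp, Lcn2, S100a8 and S100a9. Without the late library of 91 cells Retnlg was, at 175 CPM. Without the run 3 late library 7 of the 9 were over 2-fold higher, among them S100a8 at 1261, S100a9 at 2092, Lcn2 at 131 and Retnlg at 227 CPM. Il1f9 went the other way there, at 2.19 CPM against 4.60 in the early sample, over 2-fold lower. Without the run 2 late library Retnlg was at 92.5. These intervals cover counting error only and hold for 1 tumor sample per stage.

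The cells above the cut were ordered by the share f of specific granule mRNA, that is Camp, Ltf and Ngp over the sum of these and 7 late neutrophil genes (Csf3r, Cxcr2, Il1r2, G0s2, Mxd1, Hdc and Trem1). A share of at least 0.5 was called the specific granule range, 0.05 to 0.5 the middle range and under 0.05 the late-gene range. These 10 ordering genes differ between ranges by construction. The remaining members, Elane, Mpo, Lcn2, S100a8, S100a9, Retnlg and Il1f9, served as readouts. All 357 cells could be placed, 248 in the specific granule, 28 in the middle and 81 in the late-gene range. Near the limits lay 8 cells within 0.1 of a share of 0.5 and 6 cells, all medium, by the lower limit of 0.05. These are few of the 357 but not few beside the 28 of the middle range. Cells of the specific granule range were deeper, with a median of 3099 UMIs against 1603 in the late-gene range, so each readout was also computed with every cell thinned to 500 UMIs.

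**Figure D2:**
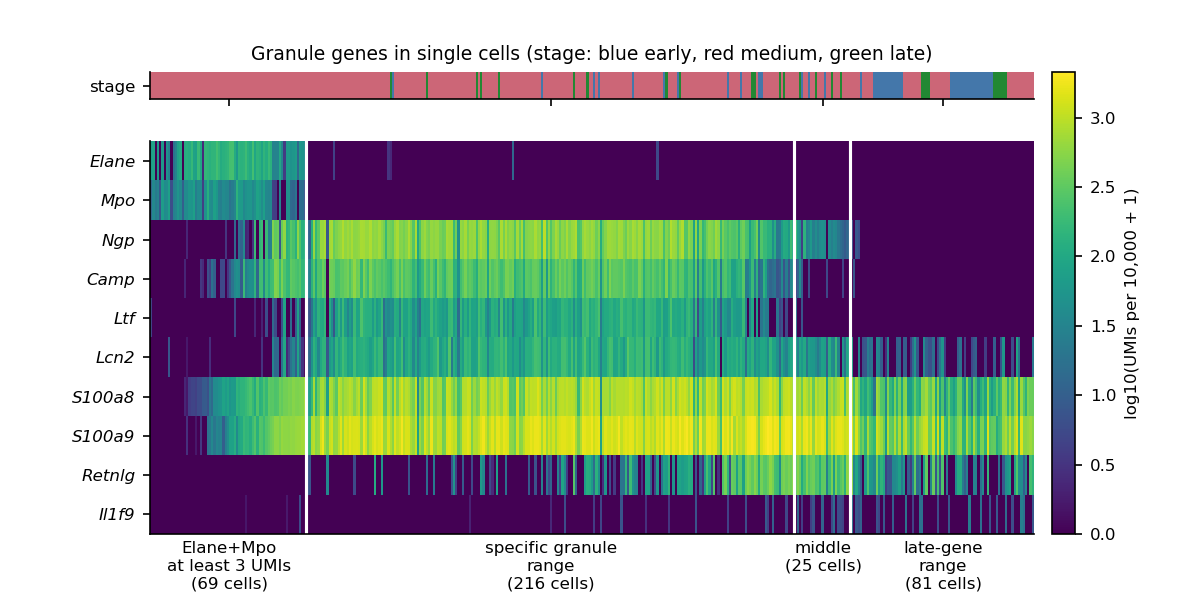
Each column is 1 CD45+ cell and each row 1 gene, coloured by log10(UMIs per 10000 + 1), with the tumor stage in the strip above. The 69 cells with at least 3 Elane and Mpo UMIs are ordered by their share of S100a8 and S100a9 UMIs and the others by falling f. Elane and Mpo are concentrated in the first group, where Ltf and Lcn2 are low. Retnlg spreads from the end of the specific granule range through the middle range into the late-gene range, where 62 of 81 cells have it. The 81 cells of the late-gene range retain S100a8 and S100a9.

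The ranges were filled differently in the 3 tumors. In the medium sample 79.2% of 283 cells were in the specific granule range (exact 95% interval 73.9 to 83.7%) and 13.4% in the late-gene range (9.68 to 18.0%). The early sample had the opposite balance, with 23.4% of 47 cells in the specific granule range (12.3 to 38.0%) and 70.2% in the late-gene range (55.1 to 82.7%). The late sample lay between them, at 48.1% (28.7 to 68.1%) and 37.0% (19.4 to 57.6%) of 27 cells. With 1 column per barcode the medium share of the specific granule range was 73.9% (67.3 to 79.8%). Within runs the medium share was 86.4%, 79.3% and 73.8%, while the early share was 22.2% and 17.4% in runs 2 and 3 and 3 of 6 cells in run 1. As numbers of cells, the specific granule range held 11 early, 224 medium and 13 late cells, and the late-gene range 33, 38 and 10. These were drawn from 5110, 3988 and 2120 CD45+ cells, so the stages differed far more in cells of the specific granule range than in cells of the late-gene range.

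**Figure D3:**
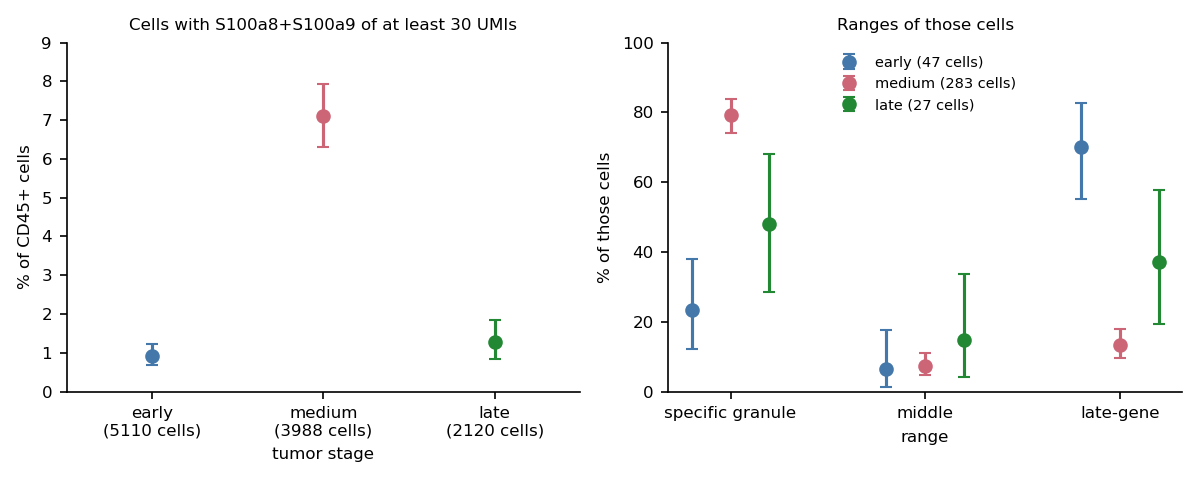
Left, the percent of CD45+ cells with at least 30 UMIs of S100a8 and S100a9 in each tumor sample. Right, the percent of those cells in each range. Bars are exact 95% binomial intervals, which cover counting error only. The medium sample stands at 7.10% on the left and at 79.2% in the specific granule range on the right, where the early sample stands at 23.4%.

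Azurophil mRNA was concentrated in cells with little Ltf, Lcn2 or Retnlg. Among the cells past the S100 cut or the limit of 3 Elane and Mpo UMIs, 69 held Elane, of which 49 also held Camp, 35 Ngp, 22 Lcn2, 18 Ltf and 1 Retnlg. Elane and Mpo had 0 UMIs in the 81 cells of the late-gene range, and stood at 4030 and 709 CPM in the middle and 2189 and 797 in the specific granule range. Of the 69 cells with at least 3 Elane and Mpo UMIs, 32 were in the specific granule range, 3 in the middle range and 34 below the S100 cut. These few medium cells carried the level of their ranges. The other 216 cells of the specific granule range had Elane at 7.47 CPM (6 UMIs) and Mpo at 0, and the other 25 of the middle range had 0 of both. When the 69 were split in 3 groups of equal size by the share of S100a8 and S100a9 in their UMIs, the 23 lowest cells had Elane at 6537 and Mpo at 3437 CPM and little else, with Camp and Ngp at 13.2 each. In the middle group Elane reached 14626, S100a8 10383 and Camp 3675, while Ngp was at 613 and Ltf and Lcn2 at 7.47 each. In the highest group Ngp and Camp stood at 23161 and 23034, and Ltf and Lcn2 at 1110 and 1571. Retnlg had 0 UMIs in all 69 cells. In the middle group 19 of 23 cells had Camp and 8 had Ngp, while Ltf and Lcn2 were found in 1 cell each there and in 11 and 14 of 23 cells of the highest group. The lowest, middle and highest groups of 23 cells came from 15, 12 and 11 distinct barcodes.

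Lcn2 was highest in the specific granule range and still present in the late-gene range. It was at 9271 CPM in the specific granule, 4169 in the middle and 929 in the late-gene range, a ratio of 9.98 between the first and the last (95% interval 8.47 to 11.8). In each tumor the direction was the same, with 9351 against 488 (early), 9281 against 1290 (medium) and 8992 against 1166 (late). Ltf had 7783 UMIs in the specific granule range and 0 in the late-gene range, Camp 23503 and 1, and Ngp 42104 and 3, which the order fixes, since these genes set it. Ngp was found in 89.3% of the 28 middle-range cells, where Camp was found in 32.1% and Ltf in 7.14%.

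S100a8 and S100a9 were present in all ranges and lowest in the late-gene range. S100a9 stood at 97741 CPM in the specific granule, 95008 in the middle and 48950 in the late-gene range, and S100a8 at 64776, 55190 and 24920. The specific granule to late-gene ratio was 2.60 for S100a8 (2.52 to 2.69) and 2.00 for S100a9 (1.95 to 2.04), higher in 3 of 3 tumors. Both were part of the cut that chose the cells. With cells thinned to 500 UMIs, S100a9 averaged 54.7 UMIs per cell (SD 26.3, n = 248 cells) in the specific granule and 26.8 (SD 17.7, n = 81 cells) in the late-gene range, so the difference was also seen at equal depth.

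Retnlg peaked between the specific granule genes and the late genes. It was at 3931 CPM in the specific granule range, 21070 in the middle range and 6390 in the late-gene range, and the middle-range value was 5.36 times that of the specific granule range (5.05 to 5.69) and 3.30 times that of the late-gene range (3.04 to 3.58). The peak in the middle range was found in each tumor, at 21018 (early), 19091 (medium) and 32990 (late), though from only 3, 21 and 4 cells. The order of the other ranges was not the same in all tumors. In the medium sample Retnlg was lower in the specific granule (3368) than in the late-gene range (8503), whereas in the early sample it was higher (8273 against 3859), and in the late sample 9134 against 7546. In the medium specific granule range 40.2% of 224 cells had Retnlg, and in the early one 10 of 11 cells.

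Il1f9 was the 1 member of the 10 that was over 2-fold higher in the late-gene range. It had 19 UMIs in the specific granule range, 16 in the middle and 41 in the late-gene range, at 18.4, 222 and 263 CPM, a specific granule to late-gene ratio of 0.0700 (0.0384 to 0.123). The direction held in 3 of 3 tumors, with 33.2, 18.4 and 0 in the specific granule range of the early, medium and late samples and 207, 291 and 368 in the late-gene range. At most 5 UMIs were found in a cell, and 28.4% of the cells of the late-gene range had any. Among 6879 genes with at least 20 UMIs over the ranges, 23.6% were 2-fold higher and 20.9% 2-fold lower in the specific granule than in the late-gene range. Of the 10 members 7 were higher and 1 was lower. Of the 7, Ngp, Camp and Ltf set the order and S100a8 was part of the cut. Elane and Mpo had 0 UMIs in the late-gene range, so they passed the count limit through the specific granule range alone and had to be higher. This leaves Lcn2, so the count of 7 is not a result to set beside the share over all genes.

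**Figure D4:**
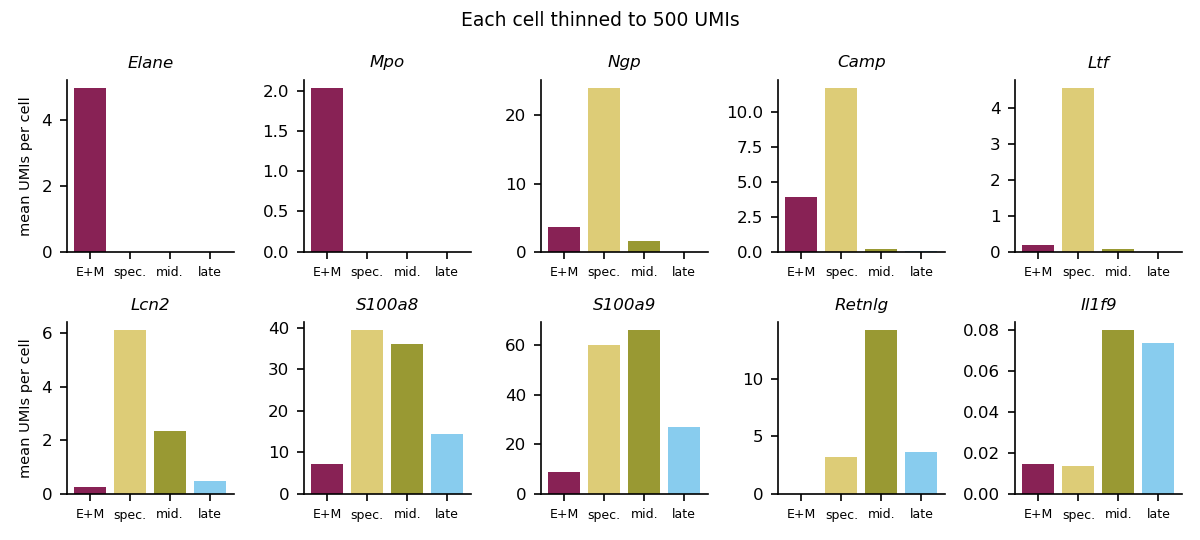
Mean UMIs per cell with every cell thinned to 500 UMIs, each gene on its own linear axis from 0, in 69 cells with at least 3 Elane and Mpo UMIs (E+M) and, without those, in the specific granule (spec., 216 cells), middle (mid., 25) and late-gene (late, 81) ranges. Ngp, Camp, Ltf and Lcn2 are highest in the specific granule range, the last 3 at 11.7, 4.54 and 6.11, and Retnlg in the middle range, at 14.2.

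The genes of the azurophil list and most of the specific granule list were higher in the specific granule range. All 6 of the azurophil list were at least 2-fold higher in the specific granule than in the late-gene range, where 23.6% of all genes tested were, led after Elane by Prtn3 (proteinase 3), at 1775 against 0 CPM, with Ctsg (cathepsin G) at 444 against 0 and Ms4a3 at 332 against 0. Elane, Mpo, Prtn3, Ctsg and Ms4a3 had 0 UMIs in the late-gene range. They passed the limit of 20 UMIs through the specific granule range alone and could only be called higher. The same held for Chil3, Fcnb, Itgb2l, Orm1 and Serpinb1a of the specific granule list. In the 216 cells of the specific granule range with under 3 Elane and Mpo UMIs, Elane was at 7.47 CPM and Mpo at 0. In the 69 cells with Elane and Mpo, Prtn3 stood at 7722 and Ctsg at 2730. Nearly all azurophil UMIs came from the medium tumor, which gave 224 of the 248 cells of the specific granule range and 38 of the 81 of the late-gene range. Prtn3 had 1 early, 1831 medium and 0 late UMIs in the specific granule range, and all 458 UMIs of Ctsg there were medium. Of the 12 specific granule genes 11 were higher, of which Ngp, Camp and Ltf set the order. Chil3 (a chitinase-like protein) was at 7509 against 0, Fcnb (ficolin B) at 946 against 0, Cd177 at 961 against 51.3 and Olfm4 (olfactomedin 4) at 1414 against 192, while Ceacam10 was at 53.3 against 51.3. A list of 5 further neutrophil genes was named for gelatinase granules, but also holds Mmp8 (neutrophil collagenase) and Hp (haptoglobin), which belong to specific granules, and Padi4, which is no granule protein. Of the 5, 0 were higher and 1, Slc11a1, was lower, so with Mmp8 and Hp among them the specific granule genes would have 2 more that were within 2-fold. Mmp8 and Mmp9 (gelatinase B) were highest in the middle range, at 4461 and 1557, against 1344 and 797 in the specific granule range and 923 and 1058 in the late-gene range. Without Ngp, Camp and Ltf 8 of 9 specific granule genes were higher. The medians of log2 ratios were 7.54 for the azurophil list, 4.87 for these 9 specific granule genes (6.92 for all 12) and -0.02 for the 5 further genes, beside 0.02 over all genes tested.

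Cell cycle genes were higher in the specific granule range, while transcription factors were divided. Among 8 granulocyte transcription factors, Cebpe (C/EBP epsilon, needed for specific granules) was at 251 CPM in the specific granule and 6.41 in the late-gene range, Gfi1 (a repressor needed for neutrophil maturation) at 67.8 and 0, and Myb (a factor of progenitors) at 91.1 and 0. In the specific granule range Cebpe had 3 early, 252 medium and 4 late UMIs, Gfi1 0, 69 and 1, and Myb 1, 89 and 4. That range also held 32 medium cells with at least 3 Elane and Mpo UMIs. Gfi1 and Myb, with 0 UMIs in the late-gene range, could only be called higher. Cebpb (C/EBP beta) went the opposite way, at 384 and 3230, as did Spi1 (PU.1), at 419 and 904. Within each tumor Spi1 was lower in the specific granule range but by under 2-fold. It stood there at 597 against 1050 (early), 397 against 763 (medium) and 606 against 920 (late). The count was 3 higher, 2 lower and 3 within 2-fold, with a median log2 ratio of -0.05, beside the 23.6% higher and 20.9% lower over all genes tested. All 12 cell cycle genes were at least 2-fold higher in the specific granule range, where 23.6% of all genes tested were, with a median log2 ratio of 3.07. Among them were Mki67 (328 against 19.2), Top2a (345 against 38.5) and Ube2c (288 against 6.41). Ccnb2, Rrm2 and Cenpf had 0 UMIs in the late-gene range and could only be called higher. In the 69 cells with Elane and Mpo, Mki67 stood at 301 and Myb at 398.

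In a list of genes linked to suppressor type neutrophils, 11 of 11 with enough UMIs were at least 2-fold higher in the late-gene than in the specific granule range, where 20.9% of all genes tested were, with a median log2 ratio of -4.15. Of these Hif1a in the medium and Ccl3 in the late tumor pointed the other way. Cxcl3 had 0 UMIs in the specific granule and 28 in the late-gene range. It passed the count limit through the late-gene range alone and could only be called higher there. Wfdc17 came close to this, with 1 and 32 UMIs. Il1b (interleukin 1 beta) was at 9794 against 339 CPM, Cxcl2 (a neutrophil chemokine) at 1141 against 23.3, Ptgs2 (cyclooxygenase 2) at 936 against 52.3 and Clec4d (a C-type lectin receptor) at 1205 against 26.2. Several of these are general genes of activated myeloid cells. Of 3 receptors of calprotectin with enough UMIs, Cd14 was at 2224 against 556 and Cd33 at 526 against 241 (in the late tumor 429 against 505), while Bsg was at 76.9 against 67.8. Tlr4 (Toll-like receptor 4) had 8 and 9 UMIs in the late-gene and specific granule ranges and was not compared. Of the 6 other S100 genes with enough UMIs, 0 were higher and 2 were over 2-fold lower in the specific granule range, with a median log2 ratio of -0.04. One was S100a6, at 2557 in the late-gene and 800 in the specific granule range, lower in 3 of 3 tumors but over 2-fold lower only in the medium one. The other, S100a4, had 10 UMIs in each range and went both ways, since all 10 of the late-gene range were early and the medium tumor had 0 there and 8 in the specific granule range.

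Outside the lists, the genes with the highest specific granule to late-gene ratio were Chil4, Gstm1, Inhba, H2afx, Gca, Smc2, Mmp28, 1700020L24Rik, Rhou and Cks1b. Each had 0 UMIs in the late-gene range, and Chil4, a chitinase-like gene, had 542 in the specific granule range. Those with the lowest ratio were Sirpb1b, Sirpb1a, Sirpb1c, Clec7a, Pla2g7, Stfa2l1, Gm16556, Ifitm1, Ccl6 and Dusp1. Clec7a (dectin 1, a receptor for fungal glucans) was at 820 against 14.5 CPM and Ccl6, a chemokine, at 1314 against 44.6. The 3 Sirpb1 genes and Chil3 and Chil4 are near copies of each other, so reads may have been split between them. Of these 20 genes 19 kept their direction in 3 of 3 tumors, and Gstm1 in 2.

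Over the 12 CD45+ libraries, the 5 genes outside the 10 whose level was most like their sum included Itgae (Pearson r of log2(CPM + 1) 0.970), Ifitm6 (0.968), Aldoc (0.963) and Wfdc21 (0.956). For the members themselves r ranged from 0.434 for Il1f9 and 0.587 for Elane to 0.999 for S100a9. Each member is part of that sum. S100a9 gave 116044 and S100a8 75118 of its 287396 UMIs, so an r near 1 was built in for them. The libraries of a stage share 1 tumor sample, so the values of r describe stages more than libraries. Retnlg had r of 0.594, and 0.980 without the late library of 17 cells, in which its only neutrophil had no Retnlg.

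Markers of B cell precursors were highest in the medium sample among CD45+ cells, while those of other lineages were sparse or divided. All 7 of 7 B cell precursor genes, a list chosen after the data were seen, were highest in the medium CD45+ cells, as were 29.8% of the 20746 genes with at least 10 UMIs (6 of the 7 had as many), and their sum was 2.21 CPM (early), 44.4 (medium) and 4.25 (late). Vpreb1, part of the surrogate light chain of B cell precursors, had 4, 105 and 8 UMIs, Igll1, its other part, 0, 58 and 0, and Rag1, which recombines antigen receptor genes, 0, 13 and 0. In CD45- cells Vpreb1 was highest in the early sample, with 65, 11 and 11 UMIs, while Igll1 had 0, 2 and 0 and Rag1 1, 2 and 3. In the CD45+ cells the 6 erythroid precursor genes summed to 0.552, 3.08 and 1.29 CPM, with Alas2 at 0 in every stage. Of the 6, 2 were highest in the medium sample, as was 1 of the 2 with at least 10 UMIs. The 13 UMIs of Car1 (carbonic anhydrase 1) were in 1 medium cell. The 6 eosinophil and megakaryocyte genes summed to 19.1, 15.9 and 16.6 CPM, with 2 of 6 highest in the medium sample. The part of these cells in the stage values of the granule genes was not tested.

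UMIs of the members in cells of other classes were few, and those of most members were highest in the medium sample. In CD45+ cells outside the neutrophil-like and the Prtn3 and Ctsg clusters, with under 3 UMIs of Elane and Mpo and under 10 of S100a8 and S100a9, S100a9 was found in 0.832% of 5051 early cells (0.600 to 1.12%), 6.09% of 3647 medium cells (5.33 to 6.91%) and 1.97% of 2086 late cells (1.41 to 2.66%). The pattern was alike in unrelated classes. Among medium cells, S100a9 was in 6.49% of microglia-like (4.99 to 8.28%), 5.88% of macrophage or monocyte-like (4.80 to 7.12%) and 5.07% of T cell-like cells (3.17 to 7.65%), whose intervals overlapped, at median depths of 1783, 1968 and 1926 UMIs. In early microglia-like cells the share was 0.754%, and in late ones 1.46%. Thinned to 500 UMIs, with cells of any S100 count, the microglia-like shares were 0.226% (early), 1.94% (medium) and 0.682% (late). The source of these UMIs was not tested.

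**Figure D5:**
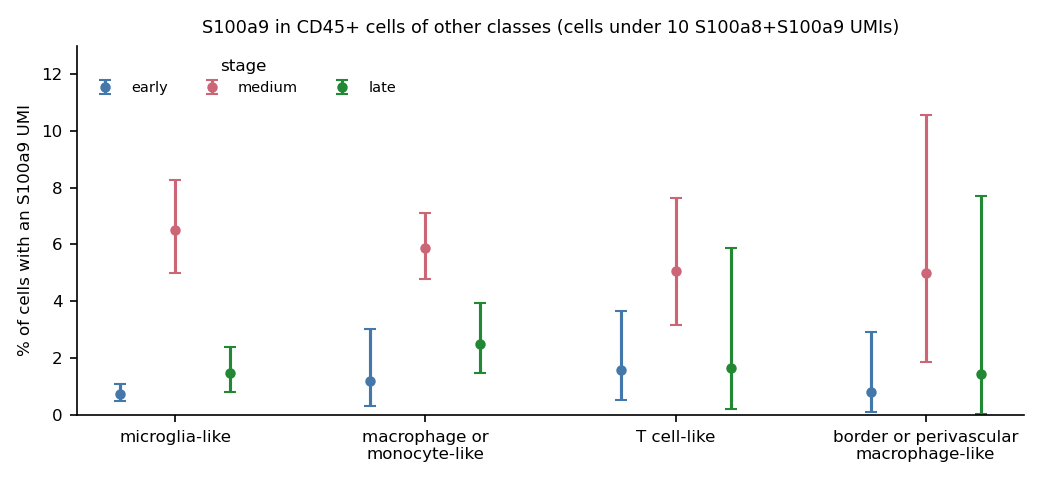
Percent of CD45+ cells with an S100a9 UMI in 4 classes other than neutrophils, by tumor stage, among cells with under 10 UMIs of S100a8 and S100a9 and under 3 of Elane and Mpo, with exact 95% binomial intervals. The medium cells stand at 5.07 to 6.49% in microglia-like, macrophage or monocyte-like and T cell-like cells, against 0.754% in early microglia-like cells.

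The ratios between members in these other cells were compared with those of the neutrophils. In the medium cells with under 10 S100 UMIs, S100a8 made up 35.6% of the S100a8 and S100a9 UMIs of other cells (exact 95% interval 30.8 to 40.6%) and 39.7% of those in the cells above the cut (39.4 to 39.9%). Ngp made up 24.8% of the Ngp and S100a9 UMIs (20.3 to 29.9%) against 28.1% (27.9 to 28.4%). With other medium cells of any S100 count (3677 cells) both shares were below those of the cells above the cut, at 31.9% (30.4 to 33.4%) and 20.6% (19.2 to 22.1%). The S100a8 share was 27.2% (18.4 to 37.4%) in microglia-like and 44.2% (37.0 to 51.6%) in macrophage or monocyte-like cells with under 10 S100 UMIs. These 3647 medium cells also held 39 Camp, 28 Lcn2, 22 Retnlg, 14 Ltf and 11 Il1f9 UMIs. Elane and Mpo are not compared here, since 6 medium cells of other classes, with 10 Elane and 29 Mpo UMIs, had been left out for these genes. Retnlg and Il1f9 were not highest in the medium cells. Retnlg was at 0.561 (early), 2.60 (medium) and 3.02 CPM (late) in these cells, from 6, 22 and 16 UMIs, and Il1f9 had 33 UMIs in 5051 early cells. Its level was 2.21 CPM in CD45+ microglia-like cells, 4.79 in CD45- glioma or oligodendrocyte progenitor-like cells and 5.81 in CD45- neuron-like cells, against 69.4 in the neutrophil-like cluster. Of the 9 Lcn2 UMIs in CD45- cells 7 were in 4 of 351 endothelial-like cells. A few cells of other classes carried far more. Medium cells outside the neutrophil clusters held 2454 S100a9 UMIs when 3677 cells of any S100 count were taken and 248 in the 3647 with under 10 S100 UMIs, and 4 glioma or oligodendrocyte progenitor-like cells of the CD45+ sort lay above the cut of 30.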

How the data were processed

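Single cells of dissociated brains were sorted as CD45+ or CD45- and sequenced on inDrop in 24 libraries over 3 runs. The authors quantified reads with RapMap in bcbio-nextgen against the GRCm38 transcriptome (labels: mm10) and deposited UMI counts for 20811 cells and 50262 genes. A deposited annotation gives the stage, sort, run and barcode of each library. Cells were placed in libraries by the run and library barcode in their names. The methods of the authors describe removal of ambient RNA and doublets, but not whether before deposit.

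From these counts, cells with at least 500 UMIs, 500 genes and at most 20% mitochondrial UMIs were kept. Scrublet (scanpy 1.11.5, Python 3.11.15) called 113 of 17786 cells doublets (0.635%), which were retained. Cells were clustered without the 10 genes (2000 variable genes, 40 components, 20 neighbours, leidenalg 0.10.2 at resolution 1) and named from markers. Levels are CPM, UMIs scaled to 1000000 UMIs of a group of cells, with exact 95% Poisson or binomial intervals for counting error only. Sorts were compared with edgeR 4.0.16 (R 4.3.3) on counts summed by tumor and sort, with the tumor as block, since both sorts came from the same tumor (correlations of deviations 0.281 to 0.386), and Benjamini-Hochberg adjustment. On simulated counts for 18729 genes it found 99 of 107 changes of 1 and 93 of 93 of 2 (log2), with 3 false among 195 calls. The simulation gave every gene the same low dispersion and had no difference between tumors. It planted changes only in genes with enough counts, so these rates do not carry over to the measured counts. Stages had 1 tumor sample each and were not tested. DESeq2 1.42.0 and other settings served as alternatives.

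The members and lists were chosen with earlier results of these data known. Genes outside the lists were named as the 10 with the highest and lowest ratio between ranges. Genes alike to the sum were the 5 of highest correlation. The limit of 3 Elane and Mpo UMIs, the immature cell lists and the values with 1 column per barcode were added after seeing the data. Some items are not reported here.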

Additional observations from a re-analysis of the deposited data

Results flagged for a closer look

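Levels of the members in the 4 CD45+ libraries of each stage were screened for a library far from the other 3, by Dixon's ratio of gap to range at its 95% critical value. Of 32 groups tested 11 stood out, where chance gives about 1 in 20, and the genes are not independent of each other since most of their UMIs lie in the same cells. The libraries are technical repeats of 1 tumor sample.

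In the early sample the run 1 library of 143 cells, 6 of them above the S100 cut, was highest. It held Ltf at 357 CPM (the others 7.61 to 50.5), S100a8 at 2562 (294 to 627), S100a9 at 4611 (446 to 1092), Retnlg at 480 (57.7 to 77.9) and Il1f9 at 25.5 (3.54 to 4.19), and the sum of the 10 genes was 9946 (1020 to 2407). In the late sample the library of 17 cells, 1 of them above the cut, held Camp at 1958 (0 to 251), Lcn2 at 1107 (0 to 120) and S100a9 at 12340 (7.57 to 2056). Elane stood out in another late library at 0.375, which was 1 UMI against 0 in the others. In the medium sample a run 2 library was low for Ltf, at 579 against 807 to 826.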

How the results depend on the processing

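In the settings given here the medium sample was above the early and late samples, both in the share of cells past the S100 cut and in the summed level of the members. The early share was 0.528% with a cut of 100 UMIs and 4.20% within run 1. The early sum was 1829 CPM with all deposited cells, 1191 as a mean over cells, and 9946, 2407 and 1022 within runs 1, 2 and 3. The medium share was 5.70% with 1 column per barcode and 8.59%, 6.17% and 8.13% within the runs, and its specific granule share was 73.9% with 1 column per barcode. The medium sum was 17661 as a mean over cells, 26218 with the members left out of the total, 22871 with 1 column per barcode, and 30385, 23857 and 26526 within the runs. The late sum was 2990 as a mean over cells, 3164 with 1 column per barcode, and 4661, 4594 and 2021 within the runs. The cause of these shifts was not tested.

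Leaving out 1 library at a time, the sum ranged over 1550 to 2266 (early), 24324 to 28850 (medium) and 2309 to 4602 (late), the share past the cut over 0.825 to 1.04%, 6.69 to 8.46% and 1.09 to 1.45%, the specific granule share over 19.5 to 25.7%, 77.2 to 81.4% and 38.5 to 60%, and the late-gene share over 65.7 to 78.0%, 12.6 to 14.7% and 26.7 to 46.2%. Between sorts, leaving out 1 tumor gave 3103 to 3161 genes higher and 3904 to 4196 lower in CD45+ cells, against 3766 and 4741 with all. Without the replicate block the counts were 3472 and 4395, and 8 of 8 members kept their call. Il1f9 lost its call without TMM scaling (log2 1.01), with all deposited cells (1.32), and without the early (1.33) or medium (0.89) tumor. Il1f9 had the fewest UMIs of the members in CD45+ cells, at 128, and each stage had 1 tumor sample.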
